A study of Rattus norvegicus with 4 samples.

Results

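The genes described here are 2 cytokines of the ciliary neurotrophic factor (CNTF) family, Cntf and Clcf1, and 2 genes known from astrocytes, Fabp7 and Slc39a12. They were chosen by symbol from the deposited table of the rat hippocampus and hold 6 of its 830 listed transcripts and 4 of its 474 gene IDs. The authors had put a transcript in that table when its DESeq p-value was under 0.05 and its fold change above 1.5 between fluoxetine-exposed and vehicle-exposed rats. The same contrast in the same samples thus selected all 6 transcripts, and their differences between groups are given as a description with no test. Transcripts outside these thresholds were not analysed here.

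The samples came from the hippocampus of male Wistar rats. Rats of the fluoxetine group received this selective serotonin reuptake inhibitor by gavage at 12 mg/kg per day from postnatal day (PND) 67 to 88, and rats of the vehicle group received 1% methylcellulose. All were killed at PND 128, which was 40 days after the last dose. Each group had 2 samples, and each sample joined the tissue of 2 rats, so that differences between single rats were not measured. The libraries held 12512596 to 14080349 reads as recovered from the deposited values, and the listed transcripts took 1.03 to 1.17% of them. Reads are given as counted and, for comparison between samples, as reads normalized by the trimmed mean of M-values (TMM) over the listed transcripts.

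CNTF and cardiotrophin-like cytokine factor 1 (the product of Clcf1) belong to the interleukin-6 family and act through a receptor made of the CNTF receptor alpha chain, the leukemia inhibitory factor receptor (Lifr) and gp130, which signals through Janus kinases and STAT transcription factors. CNTF is made by astrocytes in the brain and by Schwann cells in nerve, and it acts on the survival of neurons and of the oligodendrocyte lineage. Fabp7 encodes the brain fatty acid binding protein of radial glia and astrocytes, and Slc39a12 encodes the zinc importer ZIP12 of the brain.

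RefSeq promoters (assembly GRCr8) were available for 3 of the 4 genes and are printed to show the regulatory sequence at the start of each of these genes, from 250 bases before to 50 bases after it. Capitals mark matches on either strand to 3 motifs: TTCNNNGAA (bound by STAT factors), TGANTCA (bound by AP-1 factors) and TTGGC (a half-site of nuclear factor I, which acts in astrocyte genes). The Cntf promoter lies at chr1:219314486-219314785 on the minus strand, that of Fabp7 at chr20:37669356-37669655 on the plus strand and that of Slc39a12 at chr17:82262107-82262406 on the plus strand, in coordinates of GRCr8 that differ from those of rn4 used for the reads.
Cntf: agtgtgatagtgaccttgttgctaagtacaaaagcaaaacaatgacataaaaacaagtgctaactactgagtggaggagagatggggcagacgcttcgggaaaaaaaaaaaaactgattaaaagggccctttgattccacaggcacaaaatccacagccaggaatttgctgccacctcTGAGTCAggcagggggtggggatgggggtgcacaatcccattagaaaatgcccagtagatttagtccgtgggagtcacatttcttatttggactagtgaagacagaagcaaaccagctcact
Fabp7: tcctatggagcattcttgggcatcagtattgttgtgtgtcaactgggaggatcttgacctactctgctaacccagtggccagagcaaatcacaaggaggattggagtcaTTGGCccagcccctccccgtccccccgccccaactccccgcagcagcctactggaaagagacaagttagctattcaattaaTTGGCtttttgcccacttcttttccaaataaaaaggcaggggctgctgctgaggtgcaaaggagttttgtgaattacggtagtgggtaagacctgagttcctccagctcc
Slc39a12: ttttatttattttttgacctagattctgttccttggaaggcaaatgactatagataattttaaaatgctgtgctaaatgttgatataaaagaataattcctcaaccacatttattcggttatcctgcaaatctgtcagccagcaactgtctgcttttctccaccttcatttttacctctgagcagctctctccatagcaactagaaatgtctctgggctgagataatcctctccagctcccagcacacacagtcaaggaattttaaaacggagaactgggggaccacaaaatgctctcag

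The Cntf promoter held 1 match to the AP-1 motif, 72 bases before the start, which 7.33% of 33469 promoters of the same length contain. The Fabp7 promoter held the nuclear factor I half-site at 2 places, 141 and 60 bases before the start, and 45.8% of all promoters contain it. None of the 3 promoters held the STAT motif, found in 8.87% of promoters, and that of Slc39a12 held no match to any of the 3 motifs in this window. A match describes letters and not binding. The promoters had a GC content of 45.3% (Cntf), 51.3% (Fabp7) and 39.3% (Slc39a12), with a median of 51.7% over all promoters.

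In fluoxetine-exposed rats Cntf had higher reads, and it was the gene of the 4 whose samples lay closest together within each group. Cntf (gene ID 25707) lies on the minus strand of chromosome 1 of the rat build rn4 from 215842668 to 215844691, and its listed transcript has 2 exons and 1094 bases. It had 21 and 24 reads in fluoxetine samples 1 and 2, and 6 and 9 reads in vehicle samples 1 and 2. The groups did not overlap, with vehicle sample 1 the lowest. Normalized reads were 21.1 ± 0.373 in fluoxetine and 7.98 ± 2.19 in vehicle (SD, n = 2 samples per group), a log2 fold change of 1.39 (standard error 0.53). Fluoxetine sample 1 had 3.48 times the reads of vehicle sample 1 (95% counting interval 1.36 to 10.5, exact) and fluoxetine sample 2 had 2.47 times those of vehicle sample 2 (1.11 to 6.04), relative to the library totals. With 6 reads in vehicle sample 1, the exact Poisson interval of that count is 2.20 to 13.1 reads. Such intervals cover counting error only and leave out the spread between samples. Reads carried no molecular identifiers, so amplified copies were not told apart. The log2 fold change stayed between 1.14 and 1.77 with any 1 sample left out.

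Clcf1 differed more between the fluoxetine samples than between the group means. The vehicle samples did so by a small margin with TMM, and did not in the deposited normalized expression. Clcf1 (gene ID 365395) lies on the plus strand of chromosome 1 of rn4 from 206802745 to 206806332, with a listed transcript of 2 exons and 1864 bases. It had 32 and 81 reads in fluoxetine samples 1 and 2, against 37 and 13 in vehicle samples 1 and 2. Fluoxetine sample 1 lay below vehicle sample 1, and the groups overlapped. The normalized reads were 51.9 ± 28.5 in fluoxetine and 26.7 ± 18.3 in vehicle (SD, n = 2), and their difference did not reach the SD within fluoxetine. Its log2 fold change of 0.96 (standard error 0.75) was 0.12 when fluoxetine sample 2 was left out and 1.91 when vehicle sample 1 was left out. Leaving out fluoxetine sample 1 gave 1.43, and leaving out vehicle sample 2 gave 0.54. Within the fluoxetine group, sample 2 had 2.64 times the reads of sample 1 (95% counting interval 1.73 to 4.11, exact), and within the vehicle group sample 1 had 2.54 times the reads of sample 2 (1.32 to 5.21). The pair of samples with number 1 thus showed a ratio of fluoxetine to vehicle of 0.861 (0.519 to 1.42) and the pair with number 2 a ratio of 5.77 (3.19 to 11.3).

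**Figure D1:**
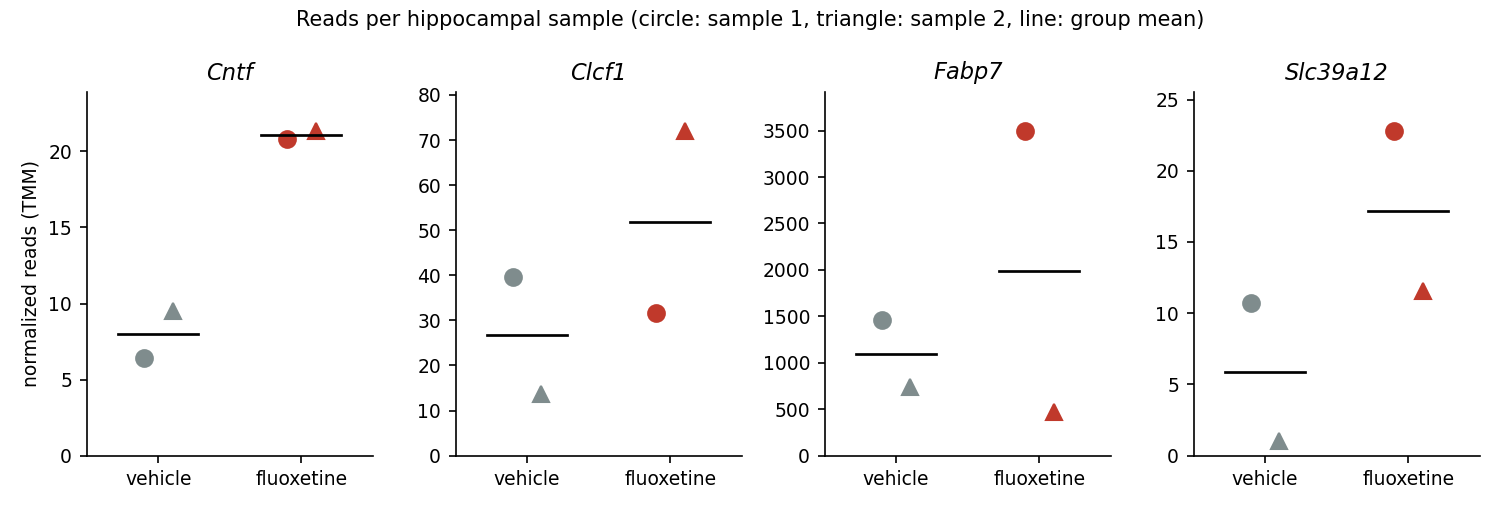
TMM-normalized reads (vertical axis, linear from 0, a scale of its own for each gene) of Cntf, Clcf1, Fabp7 and Slc39a12 in the 2 vehicle samples (grey) and the 2 fluoxetine samples (red), where a circle is sample 1, a triangle is sample 2 and a line is the group mean. The groups do not overlap for Cntf and Slc39a12, and fluoxetine sample 2 is the lowest of the 4 samples for Fabp7.

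Fabp7, the most abundant of the 4 genes, was higher in fluoxetine-exposed rats through fluoxetine sample 1, while fluoxetine sample 2 had the lowest level of all. Fabp7 (gene ID 80841) lies on the plus strand of chromosome 20 of rn4 from 36812518 to 36816050, and its transcript has 4 exons and 602 bases. It had 3528 and 533 reads in fluoxetine samples 1 and 2, and 1359 and 695 reads in vehicle samples 1 and 2. The vehicle samples lay between the fluoxetine samples. Normalized reads were 1985 ± 2137 in fluoxetine and 1096 ± 509 in vehicle (SD, n = 2), so the spread between the fluoxetine samples was larger than the difference between the groups. The log2 fold change of 0.86 (standard error 1.02) turned to -1.21 without fluoxetine sample 1. It was 1.54 when the other fluoxetine sample was left out, and 1.43 or 0.37 when vehicle sample 1 or 2 was. With the same sample numbers, fluoxetine had 2.58 times the reads of vehicle at number 1 (95% counting interval 2.43 to 2.75, exact) and 0.71 times at number 2 (0.633 to 0.796). Of the 432 listed transcripts with higher reads in fluoxetine, 30 (6.94%) also had a fluoxetine sample below both vehicle samples at this scaling.

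Slc39a12 was higher in both fluoxetine samples, but from few reads and by a margin that depended on the transcript and the scaling. Slc39a12 (gene ID 291328) lies on the plus strand of chromosome 17 of rn4 and has 3 listed transcripts. The longest, of 12 exons and 2471 bases from 88517046 to 88605947, had 23 and 13 reads in fluoxetine samples 1 and 2, against 10 reads in vehicle sample 1 and 1 read in vehicle sample 2. A transcript of 11 exons and 2363 bases over the same span had the same 4 counts. The RefSeq transcript of 11 exons and 2213 bases, from 88525527 to 88605947, had 21 and 13 reads in fluoxetine, 8 in vehicle sample 1 and 0 in vehicle sample 2. This 0 stood as counted with all samples, and a floor of 3 reads, a one-sided limit, replaced it only when vehicle sample 1 was left out. The exact two-sided Poisson interval of a count of 0 reaches 3.69 reads. Only 5 of the 47 reads of the longest transcript lay outside the RefSeq one, so the 3 transcripts repeat nearly the same reads and are no separate evidence.

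The normalized reads of the longest Slc39a12 transcript were 17.2 ± 7.94 in fluoxetine and 5.89 ± 6.83 in vehicle (SD, n = 2). The log2 fold change was 1.52 (standard error 1.04). The lowest fluoxetine sample, at 11.6 normalized reads, stood 1.08 times above the highest vehicle sample, at 10.7. The exact Poisson intervals of these counts, 6.92 to 22.2 reads for 13 and 4.80 to 18.4 reads for 10, overlapped over most of their length. Without vehicle sample 2 the log2 fold change was 0.69, and without fluoxetine sample 1 it was 0.96. Without vehicle sample 1 it was 3.87, against the 1 read of vehicle sample 2, where the ratio of fluoxetine to vehicle reads was 16.3 (95% counting interval 2.75 to 662, exact). It was 1.80 without fluoxetine sample 2. For the RefSeq transcript with TMM, the lowest fluoxetine sample was 1.35 times as high as the highest vehicle sample. Its log2 fold change with all samples was 1.89 (standard error 1.29). In deposited normalized expression, the longest transcript had 0.00389 in fluoxetine sample 2 and 0.00289 in vehicle sample 1.

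**Figure D2:**
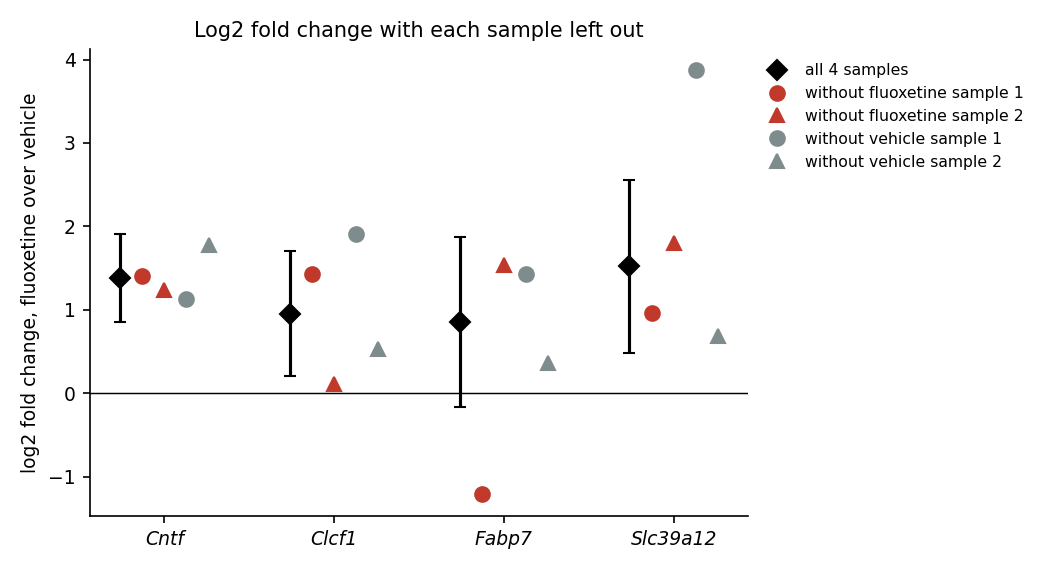
Log2 fold change of fluoxetine over vehicle (vertical axis) for each gene with all 4 samples (black diamonds, bars show the standard error) and with each sample left out. The Cntf values stay between 1.14 and 1.77, while Fabp7 falls to -1.21 without fluoxetine sample 1.

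All 4 genes had a positive log2 fold change, where 52.0% of the 830 listed transcripts had one. Counted at the transcript with the most reads, the groups stood apart, with fluoxetine higher, in 2 genes out of the 4, Cntf and Slc39a12. Over the table this held for 30.6% of all listed transcripts and for 58.8% of the 432 with higher reads in fluoxetine. Because the contrast chose the genes, nothing is read from these counts. In tissue samples such as these, fewer cells of a type and less RNA per cell cannot be told apart.

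The difference between the 2 fluoxetine samples was larger for Fabp7 than for any other well-read gene of the table. Fluoxetine sample 1 had 6.35 times the Fabp7 reads of sample 2 relative to the library totals (95% counting interval 5.80 to 6.97, exact), which ranked 1 among the 118 genes with a mean of at least 100 reads, with 0.5 reads added to each count for the rank. The median gene differed 1.86-fold between the fluoxetine samples in one direction or the other. In the vehicle group sample 1 also had more Fabp7 reads than sample 2, by 1.75-fold (1.59 to 1.92), which ranked 39 of 118 beside a median of 1.48-fold. This measure did not use the contrast between the groups, but the genes compared were those that had passed it.

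**Figure D3:**
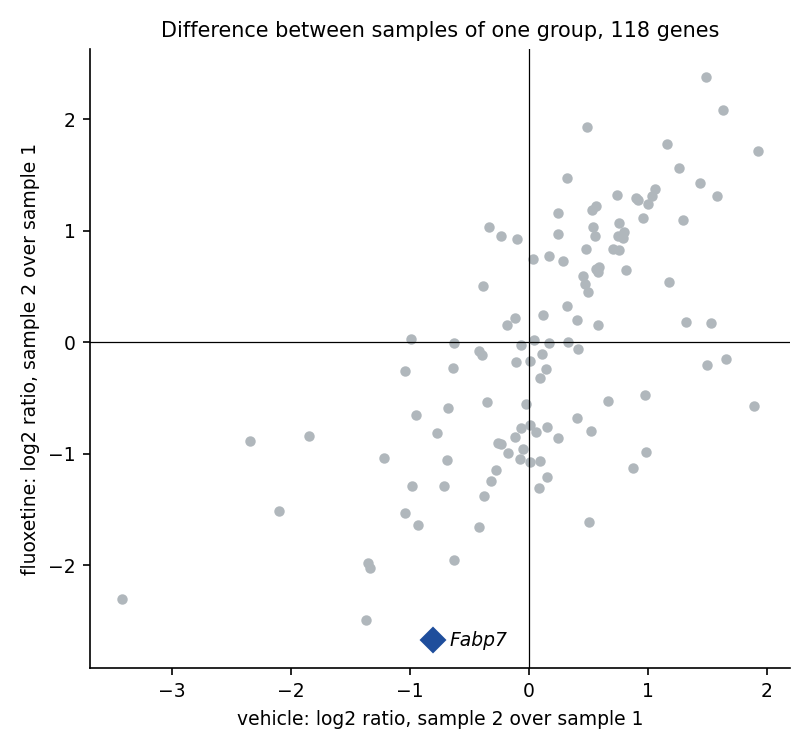
Log2 ratio of sample 2 to sample 1 in the vehicle group (horizontal axis) and in the fluoxetine group (vertical axis) for the 118 genes with a mean of at least 100 reads. Fabp7 (blue diamond) has the lowest value on the vertical axis, and the grey points are the other genes.

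Of the 6 genes with the largest excess in fluoxetine sample 1, all but LOC681479 had a listed transcript under 1000 bases. Lengths are those deposited for the listed transcript, and whether each spans a whole mRNA was not checked. After Fabp7 (602 bases), the next in order were Cox7b, a subunit of cytochrome c oxidase (448 bases, 5.63-fold), Dbi, an acyl-CoA binding protein (495 bases, 4.94-fold, and 10.7-fold in the vehicle group), and Ndufb11, a subunit of respiratory complex I (527 bases, 4.08-fold). They were followed by LOC681479 (2709 bases, 3.94-fold) and Atp6v1c1, a subunit of the vacuolar proton pump (411 bases, 3.86-fold). In the other direction, the largest excess in fluoxetine sample 2 also fell on a short listed transcript, Rpl22 (456 bases, log2 ratio of sample 2 to sample 1 of 2.37). Among the 118 genes, transcripts under 1000 bases had more reads in fluoxetine sample 1 than in sample 2 for 33 of 52, and longer ones for 29 of 66. In the vehicle group the same counts for sample 1 over sample 2 were 18 of 52 and 27 of 66. Across these 118 genes, which share the same libraries, Spearman's rho between length and the log2 ratio of sample 2 to sample 1 was 0.275 in the fluoxetine group and -0.055 in the vehicle group. The limit of 1000 bases and the relation to length were chosen after the values were seen. The part of transcript length in the level of Fabp7 was not tested.

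**Figure D4:**
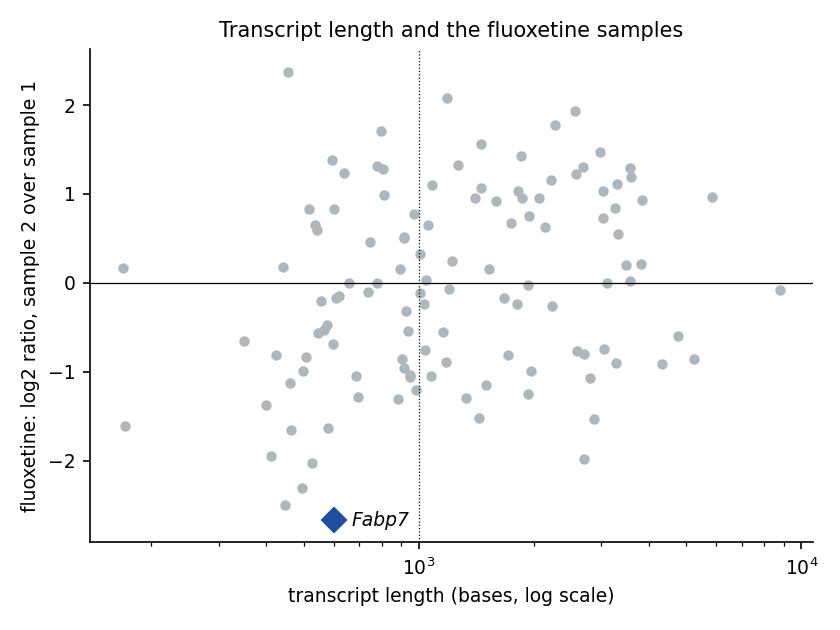
Deposited length of the listed transcript in bases (horizontal axis, log scale, dotted line at 1000 bases) and the log2 ratio of fluoxetine sample 2 to fluoxetine sample 1 (vertical axis) for the 118 genes with a mean of at least 100 reads. Fabp7 (blue diamond, 602 bases) and several other transcripts under 1000 bases lie at the bottom of the plot. The highest point, Rpl22 (456 bases, 2.37), is also a transcript under 1000 bases.

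The within-group differences of Cntf and Slc39a12 rested on fewer reads. For Cntf, sample 2 had 1.19 times the reads of sample 1 in fluoxetine (95% counting interval 0.635 to 2.25, exact) and 1.68 times in vehicle (0.534 to 5.73). These intervals include a ratio of 1. For the longest Slc39a12 transcript, sample 1 had 1.70 times the reads of sample 2 in fluoxetine (0.825 to 3.65) and 8.93 times in vehicle (1.27 to 388), where sample 2 had a single read.

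Levels of the 4 genes were compared with the deposited normalized expression (NE), a value per transcript length and library size made by the authors. From highest to lowest mean NE over the 4 samples the order was Fabp7 at 1.84 ± 1.60, Clcf1 at 0.016 ± 0.0114, Cntf at 0.0101 ± 0.0058 and Slc39a12 at 0.00343 ± 0.0026 (SD, n = 4 samples of both groups). Fabp7 ranked 7 of the 540 symbols of the table by mean NE, and Clcf1, Cntf and Slc39a12 ranked 249, 300 and 389.

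Fabp7 was 115 times as high as Clcf1 in mean NE, and its lowest sample, at an NE of 0.655, stood above the highest Clcf1 sample, at 0.0322. Clcf1 and Cntf could not be put in order beyond their spread. Clcf1 had an NE of 0.0122 and 0.0322 with fluoxetine, and of 0.0142 and 0.00557 with vehicle. Cntf had an NE of 0.0136 and 0.0162 with fluoxetine, and of 0.00391 and 0.00657 with vehicle. Clcf1 was the higher of both in 2 of 4 samples. Cntf was higher than Slc39a12 in 4 of 4 samples, by 1.35 to 20.5 times, although their ranges over the samples overlapped. The NE of the longest Slc39a12 transcript was 0.00661 and 0.00389 with fluoxetine, and 0.00289 and 0.00032 with vehicle.

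**Figure D5:**
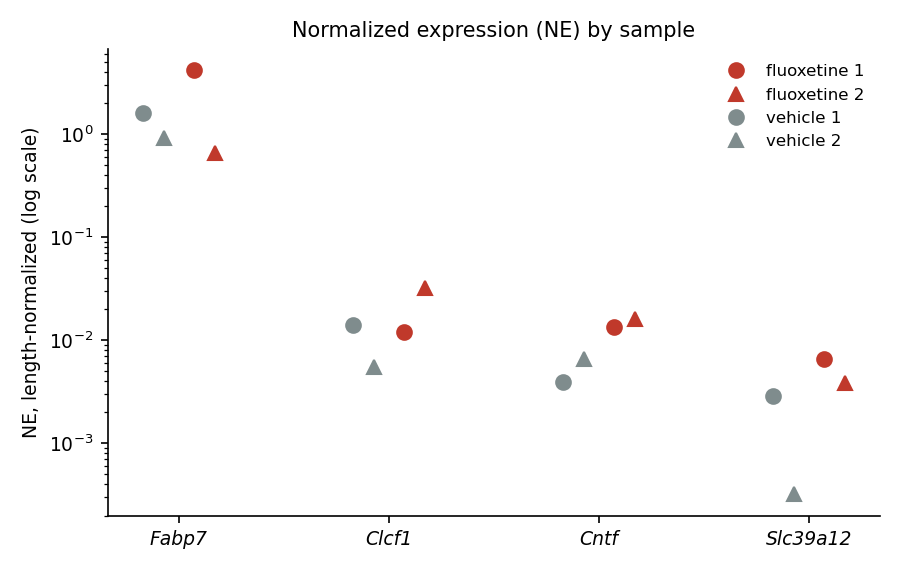
Deposited normalized expression (NE, per transcript length and library size, log scale) of the 4 genes by sample. Grey stands for vehicle and red for fluoxetine, a circle for sample 1 and a triangle for sample 2. All 4 Fabp7 samples lie above 0.6, and the samples of Clcf1 and Cntf overlap.

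The 4 genes had different patterns over the samples. Distance between patterns was taken as the root mean square difference of log2(normalized reads + 1) over the 4 samples, after each gene's own mean was subtracted. Cntf and Clcf1 differed by 0.82 and Clcf1 and Slc39a12 by 0.92. Fabp7 and Slc39a12, both placed in astrocytes, differed by 1.15, beside a median of 1.13 between the 4 genes and the 312 other genes with at least 10 normalized reads on average. The remaining pairs ranged from 1.14 (Cntf and Slc39a12) to 1.48 (Clcf1 and Fabp7).

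Nearest to Cntf were Tmem194b, at a distance of 0.12, and Grm8, a metabotropic glutamate receptor, at 0.13, followed by a locus with no symbol at 0.14. Grm8 had 21 and 27 reads in fluoxetine samples 1 and 2 against 8 and 10 in vehicle. For Clcf1 the nearest were LOC679651 at 0.18, Elovl7, an enzyme of fatty acid elongation, at 0.23 and Stac2 at 0.25. Nearest to Fabp7 were Atp6v1c1 at 0.26, Cox7b at 0.30 and Tbp, the TATA-binding protein, at 0.32. Atp6v1c1 had 428 and 106 reads with fluoxetine, against 204 and 118 with vehicle, the same order of samples as Fabp7. For Slc39a12 the nearest were Gchfr, a regulator of GTP cyclohydrolase I, at 0.15, a locus with no symbol at 0.20 and Zfp52, a zinc finger gene, at 0.28.

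Few other genes of the CNTF pathway were among the listed transcripts. Of 9 ligands of the CNTF and interleukin-6 family, 2 were listed (Cntf and Clcf1), both higher in fluoxetine, as were 52.0% of all listed transcripts. Their median log2 fold change was 1.17, from values that the same contrast had selected. Of 6 receptor chains 1 was listed, Lifr, the signalling chain that CNTF shares with leukemia inhibitory factor, and its only listed transcript was lower in fluoxetine. This transcript of Lifr with 2 exons and 752 bases, on chromosome 2 of rn4 from 56471215 to 56473603, had 1 and 0 reads with fluoxetine, against 3 and 8 with vehicle. It is named by a human Ensembl entry, and other transcripts of Lifr were not analysed here. Summed over the 2 samples of each group, vehicle had 11.4 times its reads in fluoxetine (95% counting interval 1.66 to 493, exact), from 12 reads in all. The interval leaves out the spread between samples, and the same contrast had selected this transcript. Both fluoxetine samples had fewer of its reads than either vehicle sample, and the same held for 41.1% of the 830 listed transcripts. Of 11 genes of Janus kinase and STAT signalling 0 were listed. Of 9 other neurotrophic factors 1 was listed, Gdnf, the glial cell line-derived neurotrophic factor, with 6 reads in vehicle sample 2 and 0 in the other samples. Genes of these lists outside the table were not analysed here.

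Of 20 astrocyte genes, Fabp7 and Slc39a12 alone were listed, and Fabp7 was also the single listed gene of 10 radial glia and neural stem cell genes. The defining astrocyte markers Gfap, Aqp4, Aldh1l1, Slc1a2 and Slc1a3 were not analysed here, so whether the astrocyte content of the samples differed was not measured. Of the other 7 fatty acid binding protein genes, 13 SLC39 zinc importers and 10 SLC30 zinc exporters, 0 were listed.

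Markers of other cell types also moved between the samples. Of 16 oligodendrocyte genes 12 were listed and 12 were higher in fluoxetine, where 52.0% of all listed transcripts were. The groups stood apart, with fluoxetine higher, in 3 of these 12, beside 30.6% of all listed transcripts and 58.8% of the 432 with higher reads in fluoxetine. Their summed normalized reads were 12258 and 24298 in fluoxetine samples 1 and 2, against 9534 and 15916 in vehicle samples 1 and 2. Relative to the library totals 12 of 12 had more reads in sample 2 than in sample 1 in both groups, and with TMM 11 of 12 did, the exception being the myelin gene Mog. Fabp7 had more reads in sample 1 in both groups. Of the 118 genes with at least 100 reads, 52.5% had more in sample 1 in the fluoxetine group and 38.1% in the vehicle group. These shares are for each group alone and not for both at once. Of 8 microglia genes 1 was listed, Ly86, at 16 and 25 reads with fluoxetine, against 5 and 8 with vehicle, with the groups apart as for Cntf. The hemoglobin genes Hbb and Hba-a2, 2 of 3 red blood cell genes, summed to 618 and 470 normalized reads in fluoxetine and to 698 and 1838 in vehicle samples 1 and 2, and were highest in vehicle sample 2, where Clcf1 and Slc39a12 were lowest. Of 7 neuron genes 1 was listed, Syn2, at 2079 and 2864 normalized reads in fluoxetine and 3773 and 5009 in vehicle. Of 4 oligodendrocyte precursor genes Cspg4 was listed, with 4 and 1 reads in fluoxetine and 12 and 11 in vehicle. Of 5 genes of choroid plexus and ependyma, Kl had 6 and 2 reads in fluoxetine and 0 in vehicle, and Clic6 had 0 in fluoxetine and 1 and 5 in vehicle. Of 7 endothelial and mural genes 0 were listed. The part of these cell types in the levels of the 4 genes was not tested.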

How the data were processed

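Polyadenylated RNA of 4 hippocampal samples was sequenced by the authors as single reads of 36 bp and aligned to rn4 with at most 1 mismatch, and reads with 1 genomic position were kept. The deposited counts are reads in the exons of each transcript, made with Genomatix software and not normalized by the authors. The use of strand was not given in the sources used here, and reads shared by several transcripts can be counted for each. The deposited NE values are a signal, scaled by the authors to transcript length and data set size. Transcript lengths were taken as deposited. Columns of the authors' own comparison (fold change, p-value, adjusted p-value and direction) were not used.

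Groups came from the sample titles, and columns were matched by arm and number. Library totals were recovered from counts, lengths and NE with a constant of 10000000, which returned all 830 NE values within 2e-05 in each sample. The log2 fold changes came from edgeR 4.0.16 in R 4.3.3 (TMM, glmQLFit, all listed transcripts, no filter, treatment as the only term), and the standard error is the log2 fold change divided by the square root of the quasi-likelihood F. The common dispersion was 0.268. DESeq2 1.42.0 gave an alternative fit. The fit was checked on counts simulated at a dispersion below 0.268, so the check does not cover the spread of these data. Summaries used Python 3.11.15, pandas 2.3.3 and scipy 1.17.1. A gene with several transcripts stands at the one with the most reads.

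The members, gene lists and comparisons were chosen with earlier results of these data known. The text names all 6 transcripts, listed genes of the fixed lists and the 3 genes nearest in pattern to each member among genes with at least 10 normalized reads. Dbi, Ndufb11, LOC681479 and Rpl22 were named after their values were seen, and the minimum of 100 reads, the length limit and the motifs were set then too. Each sample pooled 2 rats, and the spread given is that between such samples.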

Additional observations from a re-analysis of the deposited data

How the results depend on the processing

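The log2 fold changes were recomputed under 11 alternatives for each gene. Cntf kept its direction under all 11, with a range of 0.71 to 1.77. It was 1.77 without vehicle replicate 2, 1.14 without vehicle replicate 1, and 0.71 on the deposited NE with a pseudocount of 0.01, which is about as large as its NE. Clcf1 kept its direction, between 0.12 without fluoxetine replicate 2 and 1.91 without vehicle replicate 1. Fabp7 turned to -1.21 without fluoxetine replicate 1 and reached 1.54 without fluoxetine replicate 2, and it was 0.32 with a replicate block. Slc39a12 ranged with single samples left out from 0.69 (without vehicle replicate 2) to 3.87 (without vehicle replicate 1, a value that rests on 1 read). On the NE with a pseudocount of 0.01 it was 0.39. With single samples left out, the RefSeq transcript of Slc39a12 was lowest at 0.93 without vehicle replicate 2, and was at least 2.35 without vehicle replicate 1. The latter value is a lower bound, computed with the one-sided floor of 3 reads in place of the 0 of the remaining vehicle sample. On the NE with a pseudocount of 0.01 the RefSeq transcript was at 0.46. A sample left alone in its group was taken to vary like the other group.

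With the replicate number as a block, the log2 fold changes were 1.40 for Cntf, 0.97 for Clcf1, 0.32 for Fabp7 and 1.78 for Slc39a12. Nothing in the labels says that the numbers pair the samples. The differences of sample 1 from sample 2 correlated between the groups at 0.524 over 507 transcripts with a mean of at least 10 reads. Fabp7 and Slc39a12 are the genes that this moved most, and the cause was not tested. Library totals raised the log2 fold changes of the listed transcripts by a median of 0.11 over TMM, and DESeq2's size factors by 0.07. The number of the 4 genes with both fluoxetine samples above both vehicle samples was 2 at every scaling tried, and the order of the genes by NE was the same with the mean over all listed transcripts. With few reads for Cntf, Clcf1 and Slc39a12, depth limits the precision of each level.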
